A study of Schizosaccharomyces pombe with 144 samples.

Results

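The vps genes of fission yeast are named for vacuolar protein sorting, the delivery of newly made hydrolases and membrane proteins to the vacuole. They were taken as every row of the gene expression table whose name is vps followed by digits and at most 1 letter, which gave 35 of 5157 genes. RNA was measured by total RNA sequencing through a synchronous meiotic course, with a library of asynchronous growing cells, called mitosis here, and 1 library at each hour from 0 h to 8 h of meiosis. All 10 libraries came from strain SPB2819, a diploid of genotype h-/h- with the adenine alleles ade6-M210/ade6-M216. Both copies of the native pat1 gene were replaced by a resistance marker (pat1::NatR/pat1::NatR), and both homologues carried pat1-as(L95A)::HygR, an analog-sensitive form of the kinase Pat1, whose loss of activity starts meiosis. A lacO array near a centromere (cen2(D107)::KanR-ura4+-lacO), a GFP-tagged Lac repressor (his7+::lacI-GFP) and a mating-type gene construct (lys1::MatPc-Bleo) were also present, and the titles give its clr4 gene, which encodes the histone H3 lysine 9 methyltransferase, as wild type. Growing cells and meiotic cells thus shared every allele, and the mitosis library was not a pat1+ control. The protocol states exponential growth in YES medium at 25 or 30 °C, depending on the strain. The study sequenced the RNA to check that the cultures progressed through meiosis together.

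Proteins bound for the vacuole are sorted at the Golgi and at endosomes. A receptor such as Vps10 binds its cargo at the Golgi and releases it in the endosome. Retromer and the GARP tether return receptors to the Golgi, ESCRT complexes draw membrane proteins into vesicles inside the endosome, and the HOPS and CORVET tethers bring endosomes together and fuse them with the vacuole. In meiosis, fission yeast builds forespore membranes around its nuclei from secretory vesicles. The sorting nexins Vps5 and Vps17 and phosphatidylinositol 3-kinase are known in this yeast to be needed for those membranes to form normally. A vps name does not always mean a sorting protein. The annotation lists vps71 as a subunit of the Swr1 chromatin complex and vps66 as an acyltransferase.

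Levels are given as RPKM, read counts divided by gene length and library size, the scale on which genes of unequal length can be compared. The RPKM of the libraries were scaled to 14998460 reads (6 h) to 20734255 reads (mitosis). A change is a difference of log2(RPKM + 1), which understates changes at low levels. The rule for a call, higher or lower, was a difference of 2-fold or more with at least 5 RPKM in at least 1 of the 2 libraries compared. With 1 library per stage there is no replicate error, no test and no p-value, and intervals cover the counting of reads only. In a culture, a change in the share of cells at a stage cannot be told apart from a change in RNA per cell. The median change over all genes was 0.52 at 0 h against mitosis, -0.69 at 6 h against 0 h and -0.78 at 7 h against 0 h. Counts are therefore also given after each library was rescaled by its median ratio to the geometric mean library. Where rescaling is not named, highest and lowest libraries are those of the RPKM as deposited. As a marker of stage, the forespore membrane gene meu14 read 4.29 RPKM in mitosis and 48.7 RPKM at 0 h, and reached 2225 RPKM at 6 h.

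The vps genes were moderately expressed. Their mean RPKM over the 10 libraries had a median of 41.2, against 43.2 for all genes, and 17 of 35 lay above 43.2. Means ran from 5.90 RPKM for vps51, a subunit of the GARP tether, to 202 RPKM for vps32, the main filament subunit of ESCRT-III. All 35 averaged at least 5 RPKM, and 32 had at least 5 RPKM in every library. The fewest reads of any member in a library were 38, for vps51 at 6 h (exact Poisson 95% interval, 26.9 to 52.2). The genes lie on chromosomes I (19 genes), II (13) and III (3), and 12 have no intron. The annotation places a gene on the opposite strand of 31 of the 35, and a protein-coding one opposite 12. Whether reads were counted by strand is not given in the sources used here, so for these 31 the reads of both strands may be mixed.

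The first comparison asks how vps RNA at the start of the meiotic course stood against that in growing cells. How the culture was brought to 0 h is not described here. Any difference in medium or arrest between these libraries cannot be told apart from stage and was not tested. At 0 h, 34 of the 35 vps genes had a higher RPKM than in mitosis, and 14 of 35 (40%) were 2-fold or more higher, where 27.9% of all genes were. None was 2-fold or more lower, where 9.13% of all genes were. The median change of the 35 was 0.87, against 0.52 for all genes. After rescaling the median was 0.41, against 0.04 for all genes, 30 of 35 were above 0, and 4 (11.4%) were 2-fold or more higher, a share below the 15.6% of all genes. None was lower, where 15.7% of all genes were. The 35 genes together took 0.447% of the table's reads at 0 h, against 0.233% in mitosis. No vps gene reached 4-fold between these libraries, while 8.9% of the table was at least 4-fold higher and 3.47% at least 4-fold lower. At 1.5-fold, 27 of 35 were higher and 0 lower, where 45.6% and 14.3% of all genes were.

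**Figure D1:**
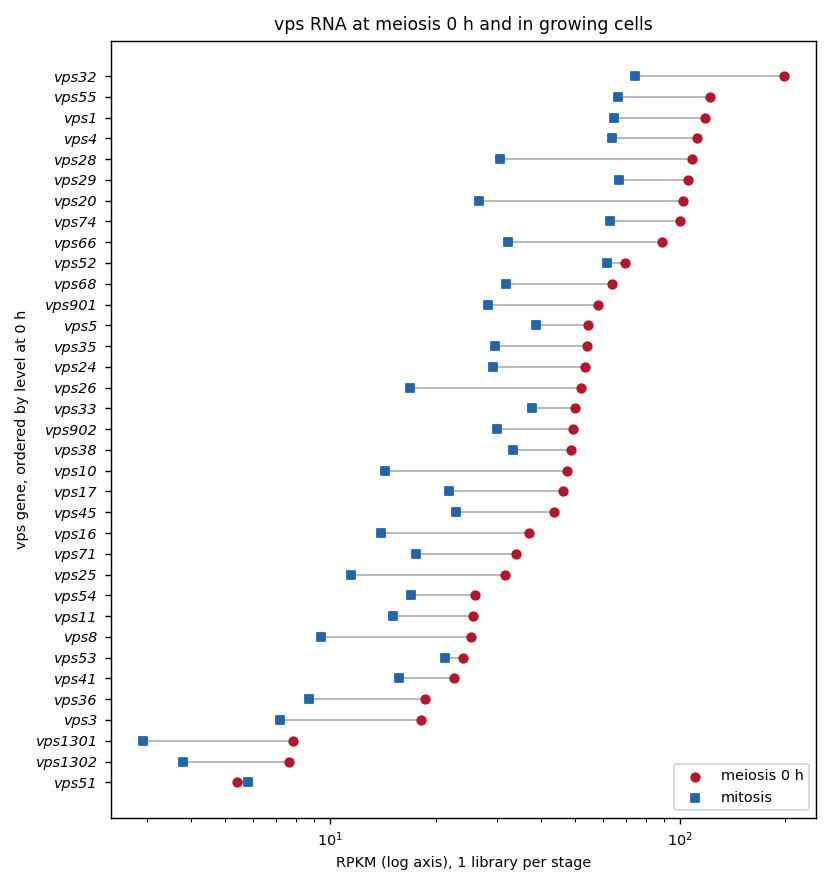
RPKM of each of the 35 vps genes at meiosis 0 h (red circles) and in mitosis (blue squares), 1 library each, on a log axis, ordered by the level at 0 h. All genes but vps51 lie to the right at 0 h, and the longest line is that of vps20, at 102 RPKM at 0 h against 26.7 in mitosis.

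The widest gap between 0 h and mitosis was that of vps20, which encodes the ESCRT-III subunit that starts the filament. It read 102 RPKM at 0 h against 26.7 RPKM in mitosis, a ratio of 3.81 with a 95% counting interval of 3.48 to 4.18. It was followed by vps28, of ESCRT-I, at 108 RPKM at 0 h against 30.5 RPKM in mitosis (3.55-fold, interval 3.28 to 3.85). Next came the sorting receptor gene vps10, at 47.6 RPKM at 0 h against 14.3 RPKM in mitosis (3.33-fold, interval 3.13 to 3.54). These 3 and vps26 of retromer, at 52.0 RPKM at 0 h against 16.9 RPKM in mitosis, were the genes that also passed 2-fold after rescaling. At the other end stood subunits of GARP. The vps51 RNA read 5.41 RPKM at 0 h against 5.82 RPKM in mitosis, a ratio of 0.93 whose interval of 0.70 to 1.24 includes 1. Its partners vps53, at 23.97 RPKM at 0 h against 21.3 RPKM in mitosis, and vps52, at 69.5 RPKM at 0 h against 61.7 RPKM in mitosis, had the next smallest changes, 0.16 and 0.17. After rescaling all 3 were below mitosis, with changes of -0.52 (vps51), -0.33 (vps53) and -0.34 (vps52).

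By role, all 3 members of ESCRT-I and ESCRT-II, 2 of 4 of ESCRT-III and Vps4, 3 of 6 of retromer with its receptor and 3 of 7 of the tethers and fusion factors were called higher at 0 h, beside 27.9% of all genes. None of 4 in GARP was. After rescaling these counts were 1 of 3, 1 of 4, 2 of 6 and 0 of 7, with none in GARP, beside 15.6% of all genes. The median changes as deposited were 1.39, 1.12, 0.95, 0.91 and 0.17 in that order. The remaining calls were vps901, an exchange factor for Rab5, vps1301, a Vps13-type lipid transfer protein, and vps66.

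Over the following hours the vps genes stayed within a narrow band. The ratio of the highest to the lowest RPKM between 0 h and 8 h was under 4 for 34 of 35 genes on the log2(RPKM + 1) scale, where 69.3% of the 4937 genes with a mean of at least 5 RPKM stayed under it. The median range was 1.177 log2 for the 35 and 1.60 for those 4937 genes, and 0.99 and 1.36 after rescaling. The exception was vps24, whose 1 h value was 5.05 times its 7 h value. After rescaling it too stayed under 4-fold, where 76.3% of those 4937 genes did. Against 0 h, 2 genes were 2-fold or more higher at some hour (vps24 and vps1301), where 20.6% of all genes were. Another 10 fell below 0 h at some hour by that rule, where 50.3% of all genes did. None reached 4-fold, where 7.56% of all genes were higher and 13.1% lower, and at 1.5-fold 11 were higher (36.2% of all genes) and 25 lower (71% of all genes). After rescaling the split turned round, with 12 higher, where 32.5% of all genes were, and none lower, where 24.3% of all genes were. Most of the calls as deposited fell at 6 h and later. At 1 h and 5 h 1 gene each was higher, vps24 and vps1301, where 5.45% and 8.9% of all genes were, and at 5 h 1 was lower, vps36, where 20.1% were. At 6 h the counts were 5 lower (37.3% of all genes), and 8 higher after rescaling (20.5% of all genes). At 7 h they were 10 lower (39.7% of all genes), and 4 higher after rescaling (18.4% of all genes). At 8 h 3 were lower (25.2% of all genes), and 2 higher after rescaling (16.3% of all genes). Rescaled libraries of the earlier hours each held few higher calls: 1 at 1 h (6.75% of all genes) and 1 at 2 h (7.83% of all genes), both vps24, then 2 at 4 h (9.46% of all genes) and 2 at 5 h (14% of all genes). The direction of the group after 5 h therefore depended on the scaling, and the order of genes within a library did not.

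**Figure D2:**
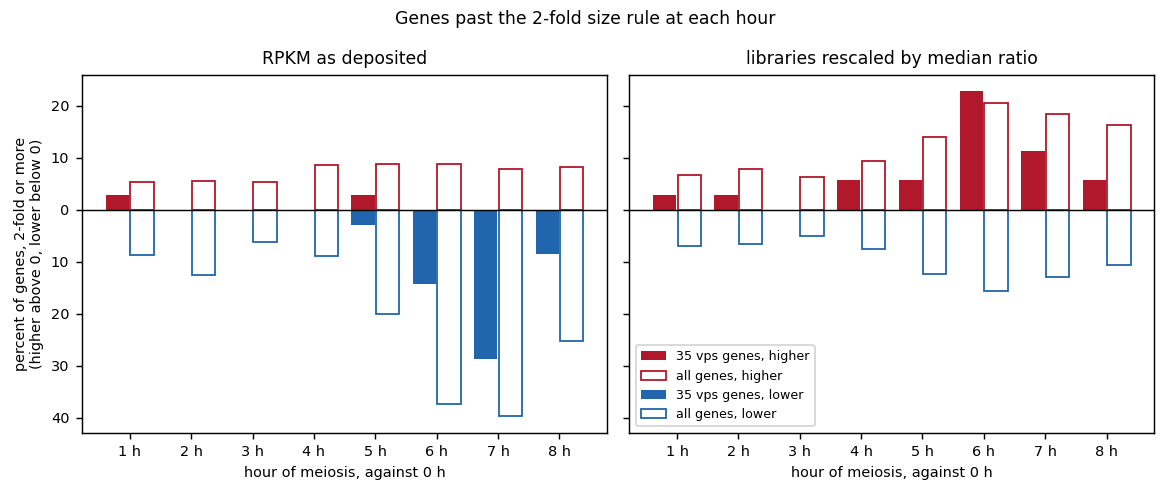
Percent of genes 2-fold or more higher (above 0) or lower (below 0) than 0 h at each hour, for the 35 vps genes (filled bars) and all 5157 genes (open bars), as deposited (left) and after rescaling (right). As deposited, 10 vps genes were lower at 7 h; after rescaling, none was lower at any hour and 8 were higher at 6 h.

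No vps gene had its highest RPKM in mitosis, where 17.3% of all genes did, and 19 of 35 were lowest there, where 28.6% of all genes were. The highest library lay between 3 h and 6 h for 19 of 35, where it did for 28.9% of all genes, and for 22 after rescaling (28.5% of all genes). After rescaling, 13 of the 35 were highest at 6 h, where 17.1% of all genes were.

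**Figure D3:**
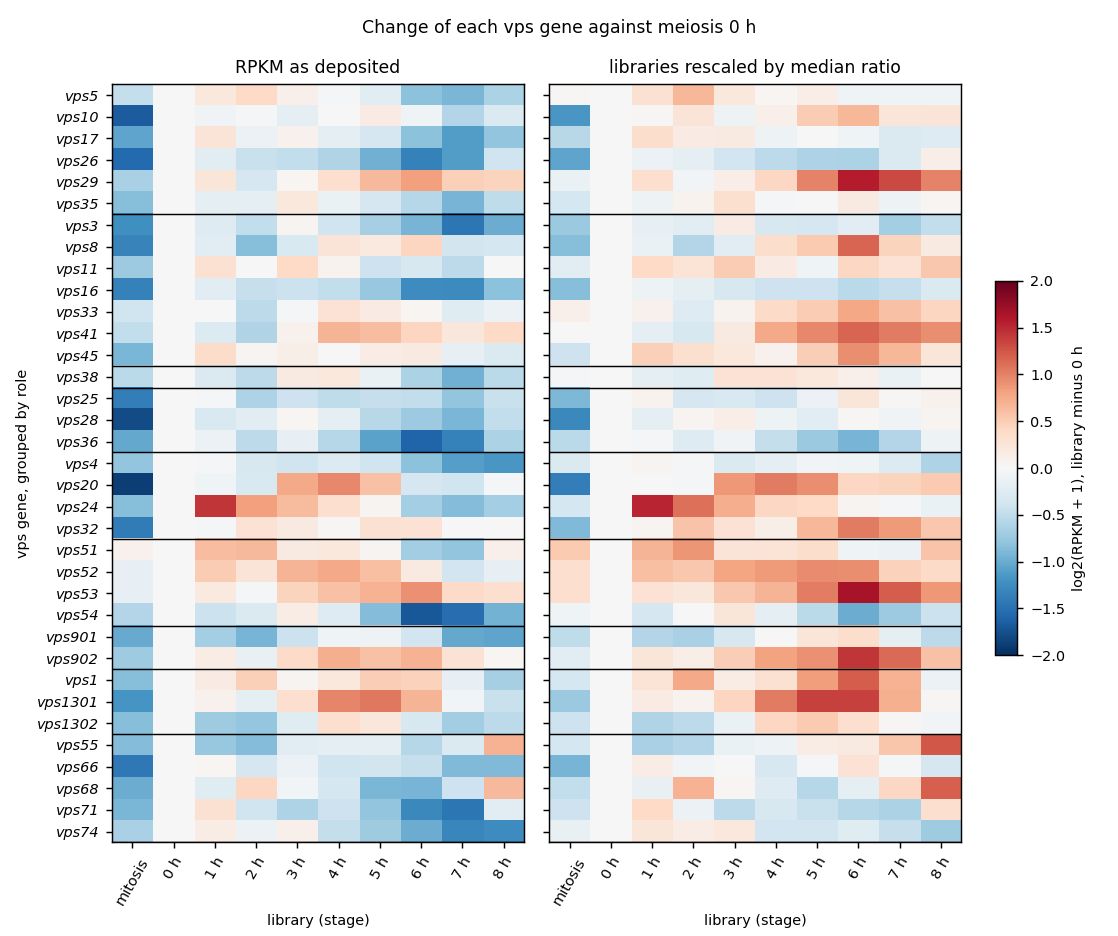
Change of each vps gene in each library against meiosis 0 h, as log2(RPKM + 1), with RPKM as deposited (left) and after rescaling (right), genes grouped by role between black lines. As deposited, the mitosis column is blue for nearly all genes, and from 1 h to 8 h the darkest red is vps24 at 1 h (1.43) and the darkest blue vps54 at 6 h (-1.69). After rescaling the darkest red is vps53 at 6 h (1.65).

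Within retromer, the subunits of the cargo-binding trimer parted. The vps29 RNA, for its metallophosphatase-like subunit, read 66.8 RPKM in mitosis and 105 at 0 h, then 124, 83.2, 107, 132, 165, 187, 147 and 143 RPKM hour by hour from 1 h to 8 h. The vps26 RNA, for its arrestin-like subunit, read 16.9 RPKM in mitosis and 52.0 at 0 h, then 44.5, 37.8, 36.6, 33.8, 26.1, 19.7, 23.3 and 39.0 RPKM hour by hour from 1 h to 8 h. The one was highest where the other was lowest among the meiotic hours, at 6 h. The ratio of vps29 to vps26 was 9.51 at 6 h (95% counting interval 8.76 to 10.3) against 2.02 at 0 h (1.91 to 2.14) and 3.94 in mitosis, and it was back at 3.66 at 8 h. Such a ratio within a library is free of the scaling between libraries. The change of vps29 at 6 h was 0.83, under the 2-fold rule, and 1.58 after rescaling. That of vps26 was -1.36, a 2-fold call, and -0.63 after rescaling. A protein-coding gene lies opposite vps26, and none opposite vps29. The trimer's scaffold vps35 and the sorting nexins vps5 and vps17 were lowest at 7 h, at 27.9, 28.5 and 20.8 RPKM, against 54.1, 54.6 and 46.2 RPKM at 0 h in the same gene order. Only vps17 of these 3 passed the rule (-1.12, and -0.29 after rescaling). The receptor gene vps10 was among the 3 steadiest members as deposited, with a range from 0 h to 8 h of 0.75 log2. After rescaling its range was 0.76, but that of others was smaller, the smallest being 0.35 for vps28. It read 14.3 RPKM in mitosis and 47.6 at 0 h, then 45.3, 46.9, 41.3, 48.0, 53.4, 44.9, 31.3 and 39.0 RPKM hour by hour from 1 h to 8 h. Every meiotic library stood more than 2-fold above mitosis.

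Among the tethers, HOPS joins late endosomes and vacuoles and CORVET acts on early endosomes, and both share the core subunits Vps11, Vps16, Vps18 and Vps33. The CORVET gene vps3 read 7.203 RPKM in mitosis and 18.1 at 0 h, then 15.04, 12.6, 18.9, 13.5, 11.1, 9.05, 6.02 and 8.57 RPKM hour by hour from 1 h to 8 h. At 7 h it stood at 6.02 RPKM against 7.203 RPKM in mitosis, an order that turned round after rescaling (8.65 against 8.20), and its change against 0 h there was -1.45, or -0.68 after rescaling. The other CORVET-specific gene, vps8, did otherwise at 6 h. It read 34.4 RPKM at 6 h against 25.2 RPKM at 0 h, a change of 0.43, or 1.16 after rescaling. As deposited it was below 0 h from 1 h to 3 h, with 13.5 RPKM at 2 h. It was below 0 h again at 7 h and 8 h, at 19.3 and 19.5 RPKM. After rescaling those last values were above 0 h, at 27.7 and 22.8 RPKM against 20.1 RPKM. The HOPS-specific gene vps41 was lowest at 2 h, at 14.6 RPKM, and highest at 4 h, at 36.9 RPKM, against 22.7 RPKM at 0 h. After rescaling it was highest at 6 h, and was called higher than 0 h at 6 h (1.166) and 7 h (1.04). The core gene vps16 read 14.9 RPKM at 6 h against 37.0 RPKM at 0 h, a change of -1.26, or -0.54 after rescaling. The ratio of vps41 to vps16 was thus 2.09 at 6 h (interval 1.899 to 2.295) against 0.61 at 0 h (0.57 to 0.65). The remaining core genes, vps11 and vps33, stayed within 17.5 to 34.3 and 34.3 to 61.3 RPKM over the meiotic hours. The gene of the fusion factor Vps45, which acts with endosomal SNARE proteins, was the second steadiest member as deposited, with a range from 0 h to 8 h of 0.66 log2. After rescaling its range was 0.93 and other members were steadier. It read 22.8 RPKM in mitosis and 43.7 at 0 h, then 57.0, 45.2, 47.4, 43.6, 48.7, 49.8, 38.9 and 35.6 RPKM hour by hour from 1 h to 8 h.

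As deposited, the largest rise of any vps gene was that of an ESCRT gene, vps24, with 1.43 at 1 h. After rescaling its 1.53 was exceeded by vps53 (1.65) and vps29 (1.58), both at 6 h. The vps24 RNA, for an ESCRT-III subunit that joins the filament late, read 29.2 RPKM in mitosis and 53.3 at 0 h, then 145, 95.4, 83.1, 67.4, 55.4, 32.8, 28.8 and 33.0 RPKM hour by hour from 1 h to 8 h. As deposited, the 1 h library alone carried the call: the ratio to 0 h was 2.73 (interval 2.57 to 2.89), and the levels at 2 h to 7 h ran down in order. No annotated gene lies opposite vps24. Its partner vps20 read 26.7 RPKM in mitosis and 102 at 0 h, then 95.4, 81.7, 173, 199, 153, 80.6, 76.7 and 99.8 RPKM hour by hour from 1 h to 8 h. It stood high from 3 h to 5 h, with a change of 0.96 at 4 h, just under the rule, and 1.05 after rescaling. The ratio of vps20 to vps24 was accordingly 1.91 at 0 h (interval 1.79 to 2.03) and 0.66 at 1 h (0.62 to 0.69). It was 2.95 at 4 h (2.79 to 3.12) and 3.02 at 8 h (2.79 to 3.27). A protein-coding gene lies opposite vps20.

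The most abundant member, vps32, hardly moved as deposited. It read 74.5 RPKM in mitosis and 198 at 0 h, then 193, 242, 226, 203, 246, 243, 199 and 197 RPKM hour by hour from 1 h to 8 h. Its range from 0 h to 8 h was 0.35 log2, the smallest of the 35, but 1.04 after rescaling, when its 6 h value was called higher. ESCRT-II, which recruits Vps20, held one of the largest falls. The gene of its membrane-binding subunit, vps36, read 8.70 RPKM in mitosis and 18.7 at 0 h, then 17.1, 12.7, 16.5, 12.3, 8.41, 5.46, 6.69 and 11.8 RPKM hour by hour from 1 h to 8 h. It was lower than 0 h by 2-fold or more at 5 h, 6 h and 7 h, with a change of -1.61 at 6 h, or -0.93 after rescaling. The length the authors used for vps36, 2051 bases, is longer than the annotated 1555 bases. As a divisor this length scales all RPKM of vps36 alike. Whether reads in the added bases changed its course was not tested. The ATPase gene vps4, whose product takes ESCRT-III apart, was highest at 0 h and lowest at 8 h, at 49.2 RPKM at 8 h against 112 RPKM at 0 h, a change of -1.17, or -0.62 after rescaling. The ESCRT-I gene vps28 read 30.5 RPKM in mitosis and 108 at 0 h, then 87.8, 93.1, 111, 94.7, 73.5, 65.4, 57.0 and 76.5 RPKM hour by hour from 1 h to 8 h. All its meiotic values lay above mitosis, and none was called against 0 h.

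**Figure D4:**
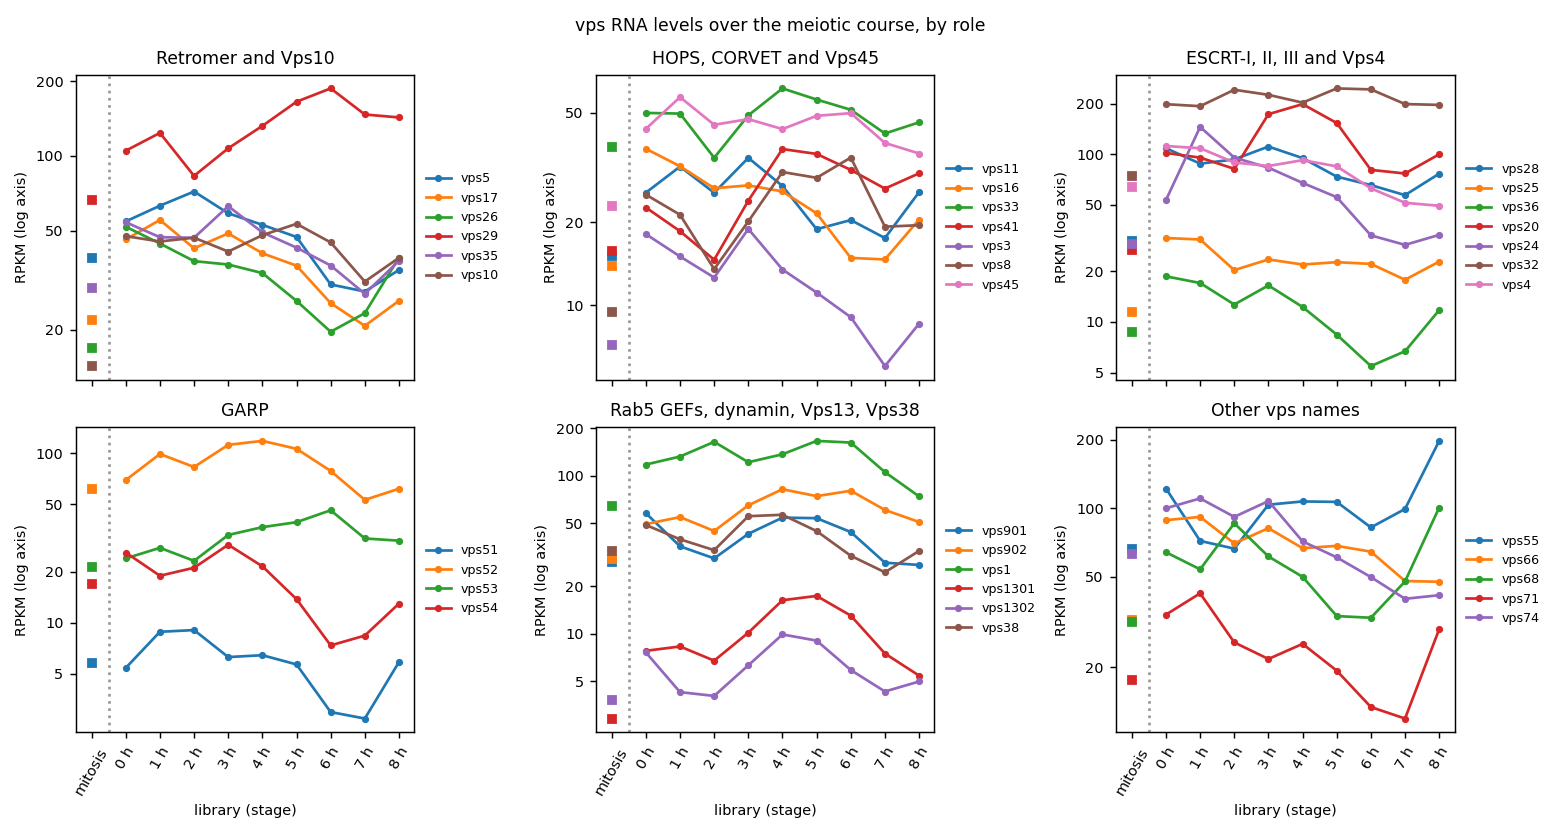
RPKM of the vps genes on log axes in mitosis (squares, left of the dotted line) and at 0 h to 8 h of meiosis (joined circles), 1 panel per role, 1 library per stage. The lines of vps29 and vps26, of vps20 and vps24, and of vps53 and vps54 part between 1 h and 6 h, and vps55 and vps68 are both highest at 8 h, at 198 and 101 RPKM.

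GARP, which tethers vesicles returning from endosomes to the Golgi, is built of Vps51 to Vps54 in equal shares, yet the RNA of its subunits ran apart. The vps53 RNA read 21.3 RPKM in mitosis and 23.97 at 0 h, then 27.7, 23.2, 33.0, 36.7, 39.2, 46.2, 31.5 and 30.5 RPKM hour by hour from 1 h to 8 h. The vps54 RNA read 17.0 RPKM in mitosis and 26.0 at 0 h, then 18.9, 21.1, 28.9, 21.5, 13.8, 7.34, 8.39 and 13.0 RPKM hour by hour from 1 h to 8 h. From 3 h to 6 h the one climbed at each hour while the other dropped at each hour. The ratio of vps53 to vps54 was 6.28 at 6 h (interval 5.62 to 7.04) against 0.92 at 0 h (0.86 to 0.99) and 1.25 in mitosis. The change of vps54 at 6 h, -1.69, was the largest fall of any member, a ratio of 0.28 (interval 0.25 to 0.32), and -0.99 after rescaling. That of vps53 at 6 h was 0.92, short of the rule, and 1.65 after rescaling. No protein-coding gene lies opposite either gene, but 1 gene of another kind is annotated opposite each.

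The vps52 RNA read 61.7 RPKM in mitosis and 69.5 at 0 h, then 99.2, 83.1, 112, 119, 106, 78.7, 53.2 and 61.9 RPKM hour by hour from 1 h to 8 h. It was highest at 4 h, with a change of 0.76 against 0 h. The vps51 RNA read 5.82 RPKM in mitosis and 5.41 at 0 h, then 8.84, 9.05, 6.27, 6.43, 5.67, 2.97, 2.72 and 5.86 RPKM hour by hour from 1 h to 8 h. Its highest library held 150 reads, so its course is the least precise of the 35, and no hour was called. Per length, vps52 exceeded vps51 in every library.

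**Figure D5:**
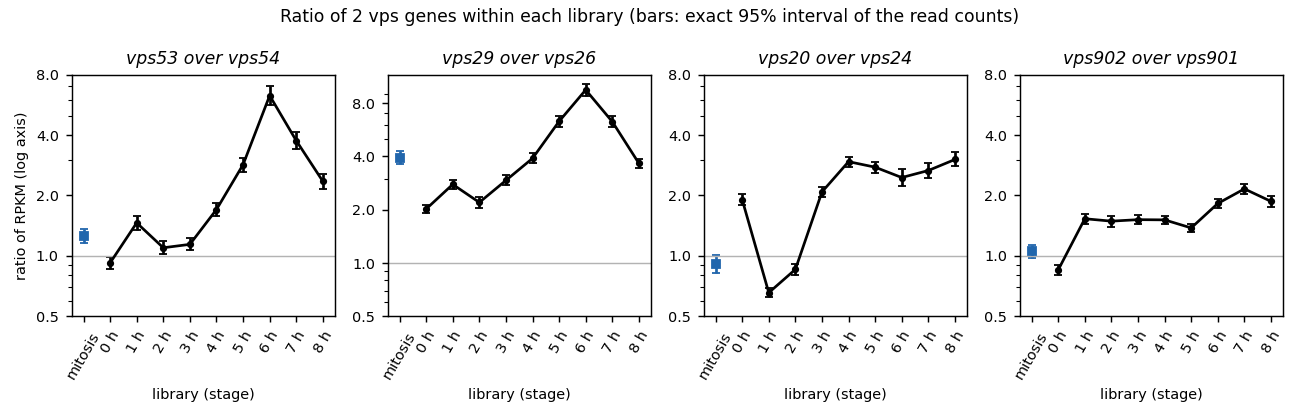
Ratio of the RPKM of 2 vps genes within each library, on log axes, in mitosis (blue square) and at 0 h to 8 h (black circles), with bars for the exact 95% interval of the read counts. The ratios of vps53 to vps54 and of vps29 to vps26 are highest at 6 h, at 6.28 and 9.51, and that of vps20 to vps24 is lowest at 1 h, at 0.66.

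Other than the paralogues, these pairs were picked after their values were seen, so their ratios describe the courses and test nothing. Among the paralogues, which were all described whatever their values, the Rab5 exchange factor genes vps901 and vps902 also parted. Rab5 marks early endosomes, and its exchange factors load it with GTP. The vps901 RNA read 28.3 RPKM in mitosis and 58.1 at 0 h, then 35.8, 30.1, 43.0, 54.4, 54.0, 44.1, 28.2 and 27.3 RPKM hour by hour from 1 h to 8 h. The vps902 RNA, named muk1 in the annotation, read 29.9 RPKM in mitosis and 49.5 at 0 h, then 54.9, 44.8, 65.2, 82.3, 74.5, 80.5, 60.9 and 51.1 RPKM hour by hour from 1 h to 8 h. The first was highest at 0 h and close to its mitosis level at 7 h, and the second was highest at 4 h, all as deposited. After rescaling both were highest at 6 h, and vps902 was called higher than 0 h at 6 h (1.43) and 7 h (1.13). The ratio of vps902 to vps901 was 0.85 at 0 h (interval 0.81 to 0.90), 1.53 at 1 h (1.44 to 1.63) and 2.16 at 7 h (2.04 to 2.29). At 7 h vps901 was 2-fold lower than at 0 h, with a change of -1.02, but of -0.18 after rescaling.

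The Vps13-type genes vps1301 and vps1302 encode very long proteins that carry lipids between membranes, and in budding yeast Vps13 is needed to form the membrane around spores. The vps1301 RNA read 2.91 RPKM in mitosis and 7.82 at 0 h, then 8.33, 6.77, 10.2, 16.3, 17.4, 13.1, 7.51 and 5.44 RPKM hour by hour from 1 h to 8 h. The vps1302 RNA read 3.79 RPKM in mitosis and 7.63 at 0 h, then 4.28, 4.05, 6.33, 9.92, 9.07, 5.91, 4.32 and 5.00 RPKM hour by hour from 1 h to 8 h. As deposited, both stood highest at 4 h and 5 h, but their earlier courses differed. The vps1302 RNA had already fallen at 1 h (ratio to 0 h 0.56, interval 0.51 to 0.61) and was similar at 2 h. Before 4 h the vps1301 RNA was below 0 h only at 2 h (ratio 0.87, interval 0.80 to 0.93). The change of vps1301 at 5 h was 1.06, a ratio of 2.22 (interval 2.09 to 2.37), and 1.37 after rescaling, and that of vps1302 was 0.34 at 4 h. Their ratio was close to 1 at 0 h (1.02, interval 0.953 to 1.101) and at 8 h (1.09, 0.992 to 1.196), and 2.21 at 6 h (2.03 to 2.40). Long genes gather many reads, so even these low RPKM rest on at least 591 reads for vps1301 and 709 for vps1302. The annotation lists 6 genes opposite each of them, none protein-coding. The dynamin gene vps1, whose product pinches membranes at endosomes, was highest at 5 h, at 167 RPKM against 118 RPKM at 0 h, and was called higher at 6 h after rescaling (1.21). The phosphatidylinositol 3-kinase subunit gene vps38 ran between 24.5 RPKM at 7 h and 56.7 RPKM at 4 h, with no call.

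Of the remaining names, vps55 and vps68 encode membrane proteins that act together in late endosomes of budding yeast. Both were highest at 8 h, at 198 RPKM for vps55 against 122 RPKM at 0 h, and at 101 RPKM for vps68 against 64.0 RPKM at 0 h. These changes were 0.69 and 0.64, and 1.24 and 1.19 after rescaling, which made them the only 2 members called higher than 0 h at 8 h. In mitosis they read 66.4 and 31.7 RPKM, so that 8 h was 2.98-fold (interval 2.79 to 3.18) and 3.17-fold (2.98 to 3.38) higher. The authors' length for vps68, 1977 bases, is longer than the annotated 973 bases, and a protein-coding gene lies opposite it. The chromatin gene vps71 read 17.6 RPKM in mitosis and 34.0 at 0 h, then 42.2, 25.7, 21.7, 25.3, 19.3, 13.4, 11.9 and 29.4 RPKM hour by hour from 1 h to 8 h. It was called lower at 6 h and 7 h, with -1.44 at 7 h and -0.63 after rescaling. The gene of the Golgi protein Vps74, which keeps glycosyltransferases in place in budding yeast, was called lower at 7 h and 8 h, at 39.96 and 41.4 RPKM against 99.97 RPKM at 0 h, with changes of -1.30 and -1.25 (-0.46 and -0.71 after rescaling).

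At the end of the course, 8 of 35 vps genes (22.9%) were 2-fold or more higher at 8 h than in mitosis, where 19% of all genes were, and none was lower, where 18.5% of all genes were. None reached 4-fold, where 9.39% of all genes were higher and 4.09% lower, and at 1.5-fold 16 were higher (27.4% of all genes) and 1 lower (29.5% of all genes). The 8 were vps10, vps20, vps26, vps28, vps29, vps32, vps55 and vps68, and vps8 joined them after rescaling (19.6% of all genes higher, 17.7% lower). The median change was 0.52, against -0.04 for all genes. This comparison shares the mitosis library with the first. The largest was vps20, at 99.8 RPKM at 8 h against 26.7 RPKM in mitosis, a change of 1.86.

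Several subunits of the same complexes stand in the table under other names. Such rows are pik3 (the kinase Vps34), ppk19 (its partner kinase Vps15), dot2 (Vps22 of ESCRT-II) and SPCC162.06c (Vps60 of ESCRT-III). They were recognised after the row names were seen. All 4 were called higher at 0 h than in mitosis (27.9% of all genes), or 3 after rescaling (15.6% of all genes). SPCC162.06c read 289 RPKM at 0 h against 37.7 RPKM in mitosis, a change of 2.90, above that of any vps-named row. The row ppk19 read 37.97 RPKM at 0 h against 7.42 RPKM in mitosis (2.21). It was lower again at 7 h, at 9.88 RPKM (-1.84 against 0 h, and -1.04 after rescaling).

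In a list of 23 partners under other names, 14 were called higher at 0 h than in mitosis (27.9% of all genes) and none lower, with a median of 1.33, and 10 after rescaling (15.6% of all genes). It holds the rest of the ESCRT genes, such as sst4 (Vps27), at 91.3 RPKM at 0 h against 19.8 RPKM in mitosis. Against 0 h, 6 of the 23 were higher at some hour (20.6% of all genes) and 9 lower (50.3% of all genes). After rescaling 12 were higher (32.5% of all genes) and 6 lower (24.3% of all genes). As deposited, the largest changes were those of ubp4, a ubiquitin-removing enzyme, and ist1, of the ESCRT-III family. The ubp4 RNA read 249 RPKM at 8 h against 17.4 RPKM at 0 h (3.76, and 4.29 after rescaling). The ist1 RNA read 4.29 RPKM at 7 h against 30.5 RPKM at 0 h (-2.57, and -1.82 after rescaling). Of 9 genes of Rab GTPases and a Rab GAP, 5 were higher at 0 h than in mitosis, with a median of 1.27, or 3 after rescaling (27.9% and 15.6% of all genes). Against 0 h, 2 were higher at some hour (20.6% of all genes) and 2 lower (50.3% of all genes). After rescaling 2 were higher (32.5% of all genes) and 1 lower (24.3% of all genes). The largest change against 0 h was that of ryh1, the Rab6 of fission yeast, which acts at the Golgi, at 110 RPKM at 7 h against 26.9 RPKM at 0 h (1.99). It was followed by gyp7, the Rab GAP, at 21.03 RPKM at 1 h against 52.1 RPKM at 0 h (-1.27). Of 13 subunits of the clathrin adaptors AP-1, AP-2 and AP-3 and the GGA proteins, 2 were higher at 0 h than in mitosis. The share of all genes was 27.9%, and the median was 0.49, beside 0.52 for all genes. After rescaling 1 was higher (15.6% of all genes). None was higher than 0 h at any hour (20.6% of all genes, or 32.5% after rescaling). Lower than 0 h were 7 of 13, beside 50.3% of all genes, or 3 of 13 after rescaling, beside 24.3%. The adaptor genes with the largest changes as deposited were apl3 and gga21. The apl3 RNA read 9.89 RPKM at 7 h against 51.1 RPKM at 0 h (-2.26, and -1.45 after rescaling). The gga21 RNA read 12.8 RPKM at 7 h against 59.2 RPKM at 0 h (-2.13, and -1.31 after rescaling).

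The proteins that the pathway delivers were also in the table. Of 7 genes of vacuolar hydrolases, 5 were higher at 0 h than in mitosis (27.9% of all genes), with a median of 1.95. After rescaling 4 were higher (15.6% of all genes). Against 0 h, 3 were higher at some hour (20.6% of all genes) and 3 lower (50.3% of all genes). After rescaling 4 were higher (32.5% of all genes) and 3 lower (24.3% of all genes). The protease gene isp6 read 2189 RPKM at 0 h against 54.4 RPKM in mitosis (5.31), and stood at 359 RPKM at 3 h (-2.60 against 0 h). The phospholipase gene plb1 had the largest rise against 0 h, at 2029 RPKM at 1 h against 365 RPKM at 0 h (2.47). Of 16 genes of the vacuolar proton pump and its assembly, none was called in either direction at 0 h against mitosis. Their median was 0.26, and of all genes 27.9% were called higher and 9.13% lower. Over the hours, 1 was higher than 0 h (20.6% of all genes) and 9 of 16 were lower (50.3% of all genes). After rescaling 3 were higher (32.5% of all genes) and 5 of 16 lower (24.3% of all genes). The largest falls as deposited were those of vma8, at 35.6 RPKM at 6 h against 120 RPKM at 0 h (-1.73, and -0.98 after rescaling), and vma13, at 47.4 RPKM at 6 h against 156 RPKM at 0 h (-1.70, and -0.95 after rescaling). After rescaling neither passed the rule at 6 h and both did at 1 h, with -1.18 for vma8 and -1.39 for vma13. For timing, 11 genes of the forespore membrane and its regulators were listed. At 0 h 8 were higher than in mitosis (27.9% of all genes), or 8 after rescaling (15.6% of all genes). Against 0 h, 10 were higher at some hour (20.6% of all genes), or 11 after rescaling (32.5% of all genes). The median change was 3.75 at 6 h. The largest were those of meu14, at 2225 RPKM at 6 h against 48.7 RPKM at 0 h (5.48), and of mfr1, an activator of the anaphase-promoting complex in meiosis, at 559 RPKM at 7 h against 11.5 RPKM at 0 h (5.48). The syntaxin gene psy1 is in this list and in that of the partners. At 6 h the vps genes had a median change of -0.49, against -0.69 for all genes.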

How the data were processed

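Libraries were made from total RNA with a stranded kit (labels' protocols). RPKM values, scaled to gene length and library size, were deposited by the authors, per the file headers. They also deposited columns named TPM, treated as a score: per library these sum to between 773446 and 1.31531e+06, and their ratio to RPKM takes 10 values that repeat down the rows, so they were used for no level. The ratio gave whole reads for 5121 of 5157 genes (99.3%, relative tolerance 1e-09) and the reads each library was scaled to. For the whole series, the submitters' processing notes list STAR 2.7.3a, Bowtie 1.2.2, cutadapt 1.18, bcl2fastq 1.17, bedtools 2.26.0 and 2.27.1, SAMtools 1.9, and the genome builds mm10 and ASM294v2. What counted the reads, with which annotation and whether by strand, is not given in the sources used here.

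Of 144 samples, 134 were not analysed here. Stage names in the titles tied each of the 10 RPKM columns to its library, and no such column was left over. Names, products, exonic lengths and opposite genes came from the RefSeq annotation of another build, ASM294v3, where 33 of the 35 matched by symbol and 2 by synonym. No coordinates or sequences are printed, and a planned motif count in promoters was not run.

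Differences of log2(RPKM + 1) were called at 2-fold with 5 RPKM or more in at least 1 library, a size rule and no test. Poisson intervals of reads, and binomial intervals of ratios, are exact, at 95%, and cover counting error only. Named genes are the 5 largest rises and 5 largest falls against 0 h, the 3 largest and 3 smallest changes at 0 h against mitosis, the 3 steadiest, the paralogues, and the 2 largest changes against 0 h in each list. Others named in the text were chosen after their values were seen. The members and lists were chosen with earlier results of these data known. The symbols aps1 and vta1 name other genes in this table and were left out of the lists. Alternatives were pseudocounts of 0.1 and 5, rescaling, no filter, 20 RPKM, 4-fold and 1.5-fold rules, and each hour left out. The calls were tried on simulated reads with counting error only, with changes set in genes above 20 RPKM and away from the 2-fold rule. Calls near the rule or at low levels were not covered. The tools were NumPy 2.4.6, pandas 2.3.3, matplotlib 3.10.9 and SciPy 1.17.1 in Python 3.11.15.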

Additional observations from a re-analysis of the deposited data

How the results depend on the processing

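No paired analysis was possible because each stage has 1 library. Of the 35 vps genes, 14 were 2-fold or more higher at 0 h than in mitosis (27.9% of all genes). This count was 9 with a pseudocount of 5, 4 after rescaling (15.6% of all genes), 0 at 4-fold (8.9%) and 27 at 1.5-fold (45.6%). The 2 genes higher than 0 h at some hour (20.6% of all genes) became 1 with a pseudocount of 5 and 1 with a filter of 20 RPKM. The count was 12 after rescaling (32.5% of all genes), 0 at 4-fold (7.56%) and 11 at 1.5-fold (36.2%). Leaving out 1 h left 1 (vps1301), and leaving out 5 h left 1 (vps24). For the pseudocounts, the filter and the hours left out, no share of all genes is given, so those counts have no background. The 10 genes lower than 0 h at some hour (50.3% of all genes) became 0 after rescaling (24.3%), 0 at 4-fold (13.1%) and 25 at 1.5-fold (71%). At 8 h against mitosis, 8 were higher (19% of all genes), 0 at 4-fold (9.39%) and 16 at 1.5-fold (27.4%). None was lower (18.5% of all genes), and 1 was at 1.5-fold (vps74, where 29.5% of all genes were). The median change at 7 h against 0 h was -0.79, -0.54 with a pseudocount of 5, 0.0265 after rescaling and 0.20 with mitosis in place of 0 h. The fold rules, the filter, the pseudocounts, rescaling and the hours left out act on these counts and medians by construction. What made the levels of whole libraries differ was not tested. Among the 70 values of single genes, none changed sign under a called value, and rescaling took 20 calls below the rule and 3 above it. Depth limits vps51 most, with 38 to 150 reads per library.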
